A study of Arabidopsis thaliana with 22 samples.

Results

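The 10 genes described here encode the plant photoreceptors named as phytochromes, cryptochromes, phototropins and the UV-B receptor of *Arabidopsis thaliana*. They were chosen by name and not by their measured values, although earlier results of these data were known. All 10 were found among the 27416 genes of the deposited count tables and passed the filter on low counts in every comparison. Transcripts were measured by RNA-seq in whole seedlings at 5 days of age, from the wild type Col-0 and from mutants. The mutants were *ahl22* (allele *ahl22-1*), *frs7 frs12* (alleles *frs7-1* and *frs12-1*), their combination *ahl22 frs7 frs12*, and *hda15* (allele *hda15-1*). Seeds were stratified, and seedlings were then grown in cycles of 16 h light and 8 h dark without further treatment. The labels give 2 days of stratification and growth at 22 °C, and the study's methods give other values. *AHL22* encodes an AT-hook protein of the nuclear matrix, *FRS7* and *FRS12* encode transcriptional repressors of the FAR1-RELATED SEQUENCE family, and *HDA15* encodes a histone deacetylase. The *ahl22 frs7 frs12* plants came from crosses of *ahl22* with *frs7 frs12*, and each mutant is represented by a single line with 2 libraries. Col-0 is represented by 2 pairs of libraries. The tables of *ahl22*, *frs7 frs12* and *hda15* hold the same pair (hereafter the shared Col-0 pair), and the table of *ahl22 frs7 frs12* holds another (the separate Col-0 pair). The study concerns hypocotyl elongation, and the comparison here asks whether loss of these regulators goes with other transcript levels of the receptors through which light restrains it.

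As background, phytochromes sense red and far-red light through a bilin chromophore, and light switches them between an inactive form and an active form that enters the nucleus. Cryptochromes and phototropins sense blue light through flavins, the former mainly to control de-etiolation and flowering and the latter to control phototropism, chloroplast movement and stomatal opening. UVR8 senses UV-B through its own tryptophans and falls apart from a dimer into monomers that bind the COP1 ubiquitin ligase. In seedlings, phytochromes, cryptochromes and UVR8 restrain hypocotyl elongation in light.

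The 12 libraries held 12537767 to 21400580 counts, and each library held at least 207 counts of each of the 10 genes. *FRS12* and *HDA15* were low in the libraries of their mutants (3.60 to 4.17 CPM, counts scaled by TMM library size, and 3.56 to 3.57 CPM) and at 28.0 CPM or more elsewhere for *FRS12* and 34.0 CPM or more for *HDA15*. *FRS7* kept 8.02 to 11.3 CPM in the mutants that carry *frs7-1*, with 13.6 to 20.4 CPM elsewhere. *AHL22* had 0.85 and 1.06 CPM in *ahl22* and 0.974 and 1.66 CPM in *ahl22 frs7 frs12*. It was also at only 2.99 and 3.02 CPM in the separate Col-0 pair and 1.75 and 1.44 CPM in *frs7 frs12*. The shared Col-0 pair had 18.4 and 16.7 CPM, and *hda15* had a mean of 13.9 CPM (SD 2.71, n = 2). *AHL22* was therefore high in *hda15* as well as in the shared pair, and low in all other groups. The Col-0 pairs thus differed in a mutated gene, and the same held for markers of tissue and time of day. The 12 root markers summed to 143 and 154 CPM in the shared pair, 109 and 97.1 CPM in *hda15*, and 29.9 to 47.5 CPM in the remaining libraries. *PLT2* was at 0 in both libraries of the separate Col-0 pair, of *ahl22* and of *ahl22 frs7 frs12*, and *RHD6* and *PLT1* were at 0 in *ahl22*. The 11 green shoot markers summed to 51264 to 79967 CPM over all libraries, with *ahl22* lowest. The 4 evening clock genes (*TOC1*, *GI*, *ELF4* and *LUX*) summed to 202 and 226 CPM in the shared pair, 124 and 125 CPM in *ahl22*, 101 and 107 CPM in *frs7 frs12*, 76.6 to 84.8 CPM in the separate Col-0 pair and *ahl22 frs7 frs12*, and 60.6 and 65.5 CPM in *hda15*. The 3 morning genes (*CCA1*, *LHY* and *PRR9*) ran the other way, from 28.8 and 32.9 CPM in the shared Col-0 pair to 117 and 147 CPM in *hda15*. For this reason every mutant was set against both Col-0 pairs. Fewer cells of a type and less RNA per cell cannot be told apart in whole seedlings, and the part of tissue share and time of day in the results was not tested.

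**Figure D1:**
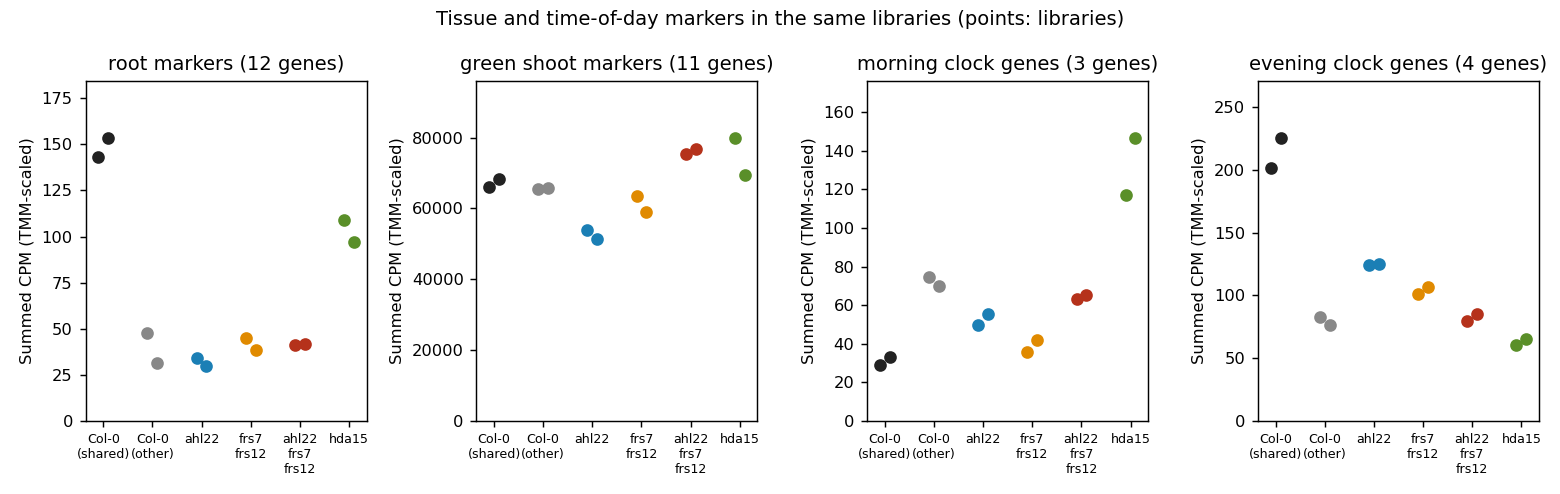
Summed level (CPM after TMM scaling, linear axes from 0) of the root, green shoot, morning clock and evening clock markers in each of the 12 libraries, grouped by genotype and Col-0 pair, with a point for each library. Root and evening sums are highest in the shared Col-0 pair (143 and 154 CPM, and 202 and 226 CPM), and morning sums are highest in *hda15* (117 and 147 CPM).

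Levels of different genes were compared per length, as RPKM over the union of the annotated exons. *UVR8* had the highest mean over the 12 libraries (88.6 RPKM), followed by *PHOT1* (76.0), *CRY1* (59.2), *PHYA* (58.4), *CRY2* (35.8), *PHOT2* (20.3), *PHYB* (18.2), *PHYC* (7.15), *PHYE* (6.23) and *PHYD* (4.32). Among phytochromes, *PHYA*, the receptor of far-red light that is degraded in its active form, was therefore highest, and *PHYB*, the main receptor of red light, was next. The steps from *PHYA* to *CRY2*, from *CRY2* to *PHOT2*, from *PHYB* to *PHYC* and from *PHYE* to *PHYD* were seen without overlap of libraries in all 6 groups. Other neighbours could not be ordered throughout. *PHYA* exceeded *CRY1* in *ahl22* and the shared Col-0 pair only, the libraries of *PHOT1* and *CRY1* overlapped in 2 groups and those of *PHYC* and *PHYE* in 3 groups. *PHOT2* was above *PHYB* in 3 groups, and *UVR8* was below *PHOT1* in 2 groups. The place of *PHOT2* depends on the gene model, since its annotated transcripts range up to 6518 bases with a median of 3389 bases, and on the latter it had a mean of 42.7 RPKM and stood above *CRY2* (38.4 RPKM on its own median transcript).

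**Figure D2:**
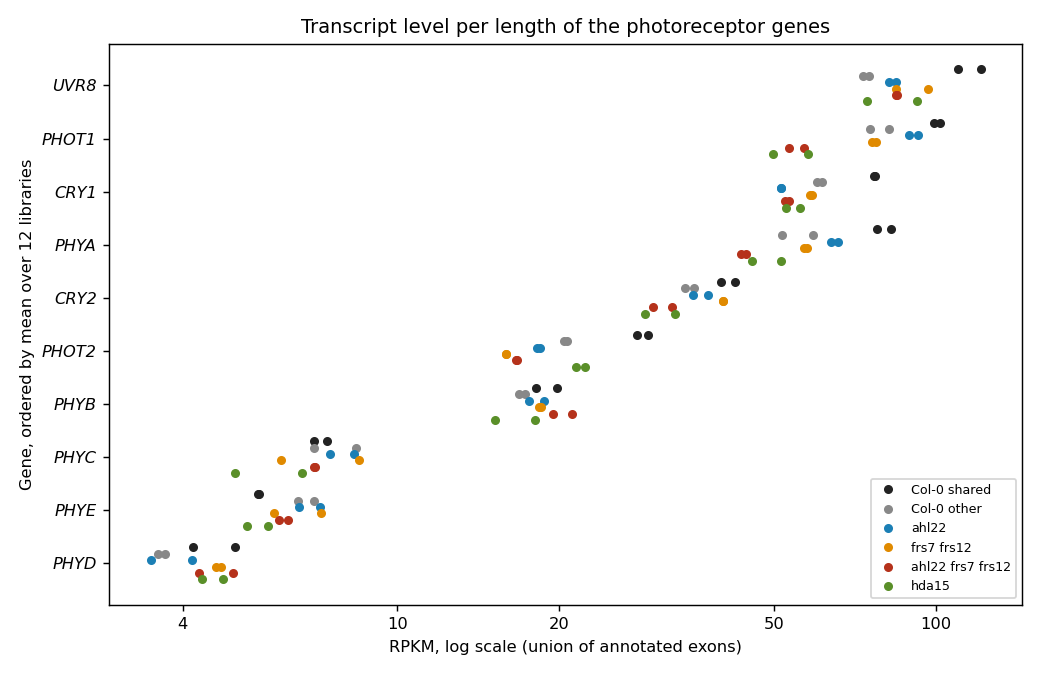
RPKM (log axis) of the 10 genes, ordered from top to bottom by their mean over the 12 libraries, with a point for each library coloured by group. The genes span from 4.32 RPKM (*PHYD*) to 88.6 RPKM (*UVR8*), and the points of *PHYC* and *PHYE* overlap whereas those of *PHYB* and *PHYC* do not.

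The windows of 250 bases before the annotated start are shown for *PHYA* and *PHOT1*, the genes called lower in *ahl22 frs7 frs12* against both Col-0 pairs and against *ahl22*, and for *PHYB*, which was called in no comparison. Capitals mark CACGTG (the G-box) and CACGCGC (the binding site of the FAR1-type factors FHY3 and FAR1), searched with AAAATATCT (the evening element) on both strands. All 3 are written 5′ to 3′ on the strand of the gene, from the TAIR10.1 assembly.
*PHYA*, chr1:3100820-3101069, minus strand: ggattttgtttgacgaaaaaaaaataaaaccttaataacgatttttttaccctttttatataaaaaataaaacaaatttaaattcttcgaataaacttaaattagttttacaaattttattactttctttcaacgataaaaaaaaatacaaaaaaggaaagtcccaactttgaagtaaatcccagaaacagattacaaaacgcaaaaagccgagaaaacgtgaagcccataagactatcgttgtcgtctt
*PHOT1*, chr3:16816471-16816720, plus strand: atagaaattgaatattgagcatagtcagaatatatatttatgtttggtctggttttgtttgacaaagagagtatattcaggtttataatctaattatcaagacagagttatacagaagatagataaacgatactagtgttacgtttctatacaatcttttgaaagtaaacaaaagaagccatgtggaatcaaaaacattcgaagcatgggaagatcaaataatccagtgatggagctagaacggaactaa
*PHYB*, chr2:8139506-8139755, plus strand: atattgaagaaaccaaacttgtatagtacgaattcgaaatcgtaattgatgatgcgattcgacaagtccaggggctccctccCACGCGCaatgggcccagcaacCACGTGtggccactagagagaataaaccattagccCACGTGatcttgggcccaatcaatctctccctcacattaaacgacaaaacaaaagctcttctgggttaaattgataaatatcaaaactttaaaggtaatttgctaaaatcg
The *PHYB* window holds a CACGCGC ending 162 bases before the start and a pair of G-boxes ending 141 and 106 bases before it. Of the other 7 genes, *PHYD* alone holds a match, a G-box ending 70 bases before its start. Among windows of the same length of 27437 protein-coding genes, 6.49% hold a G-box, 1.06% the CACGCGC and 2.36% the evening element, which none of the 10 windows holds. A and T made up 74.0% of the *PHYA* window, 69.2% of the *PHOT1* window and 58.0% of the *PHYB* window. The median over all windows was 68.8% (quartiles 64.8% and 72.4%). The other 7 windows ranged from 48.8% for *PHOT2*, which was called lower in *ahl22 frs7 frs12* against both Col-0 pairs, to 73.6% for *UVR8*.

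*PHYA* (AT1G09570, chromosome 1, 3095160 to 3100819, minus strand) was lowest in *ahl22 frs7 frs12*. It had 398 and 422 CPM in the shared pair, 265 and 303 CPM in the separate Col-0 pair, 336 and 327 CPM in *ahl22*, 291 and 294 CPM in *frs7 frs12*, 222 and 227 CPM in *ahl22 frs7 frs12*, and 232 and 263 CPM in *hda15*. Both *ahl22 frs7 frs12* libraries were below all libraries of the other groups, and the shared Col-0 pair was above all others. Set against the Col-0 libraries of the own table, *PHYA* fell in all 4 mutants. On the log2 scale the fold changes were -0.31 in *ahl22* (standard error 0.066, adjusted p = 0.000103, throughout from edgeR's quasi-likelihood test with adjustment over all genes tested), -0.49 for *frs7 frs12* (standard error 0.0787, adjusted p = 1.34e-05), -0.35 in *ahl22 frs7 frs12* (standard error 0.0724, adjusted p = 0.0102) and -0.73 in *hda15* (standard error 0.128, adjusted p = 0.000698). Against the opposite Col-0 pair only the fall in *ahl22 frs7 frs12* passed (-0.88, standard error 0.0661, adjusted p = 9.94e-15), whereas *ahl22* had 0.24, *frs7 frs12* 0.05 and *hda15* -0.19. The call in *ahl22 frs7 frs12* against the separate pair was lost without either of the 2 mutant libraries (adjusted p = 0.222 and 0.193). The value of *ahl22* against that pair became a call, as a rise, with DESeq2 (adjusted p = 0.0445), without a filter (adjusted p = 0.0168) and without library 2 of the pair (0.33).

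*PHYB* (AT2G18790, chromosome 2, 8139756 to 8144461, plus strand) was called in none of the comparisons. Its libraries ranged from 68.7 to 95.5 CPM, with means from 75.1 ± 9.01 CPM (SD, n = 2) in *hda15* to 92.0 ± 5.07 CPM (SD, n = 2) in *ahl22 frs7 frs12*. *PHYB* was thus highest in the mutant in which *PHYA* was lowest, with 88.4 and 95.5 CPM against 76.2 and 78.1 CPM in the Col-0 pair of that table, a log2 fold change of 0.24 that did not pass (95% interval 0.0768 to 0.402, adjusted p = 0.114). It became a call without library 2 of that pair (0.25, adjusted p = 0.0484), and *PHYB* was called lower in *hda15* against the shared pair without replicate 2 of *hda15* (-0.32, adjusted p = 0.0142). Against the shared pair, which had 82.1 and 89.6 CPM, it was 0.09 (95% interval -0.0672 to 0.251). The minor phytochromes gave fewer counts. *PHYC* (AT5G35840, chromosome 5, 14007812 to 14011848, plus strand), whose protein works mainly in dimers with other phytochromes, had 19.0 to 32.2 CPM, with *hda15* lowest (19.0 and 25.3 CPM). *PHYD* (AT4G16250, chromosome 4, 9195247 to 9199840, minus strand), the closest relative of *PHYB*, had 14.7 to 21.1 CPM. Neither passed in any comparison, and their values against Col-0 ranged from -0.40 to 0.13 for *PHYC* and from -0.27 to 0.36 for *PHYD*. Leaving out 1 library made calls of *PHYC* in *hda15* (without its replicate 2, -0.53 and -0.62 against the shared and the separate pair, adjusted p = 0.00266 and 0.0292) and of *PHYD* in *ahl22* (without replicate 1 of the shared pair, -0.40, adjusted p = 0.0231). The longest match of the *PHYB* transcript to *PHYD* had 81.4% identity over 3104 bases.

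*PHYE* (AT4G18130, chromosome 4, 10042137 to 10046346, minus strand), a receptor of red light that acts beside *PHYB* in shade responses, was the only one of the 10 genes called higher in a mutant against either Col-0 pair. It had 21.6 and 21.6 CPM in the shared pair, 28.1 and 25.7 CPM in *ahl22*, 28.2 and 23.1 CPM in *frs7 frs12*, 24.5 and 23.6 CPM in *ahl22 frs7 frs12*, 22.5 and 20.6 CPM in *hda15*, and 27.5 and 25.6 CPM in the separate Col-0 pair. It rose in *ahl22* by 0.31 on the log2 scale (standard error 0.117, adjusted p = 0.024). Against the separate pair, whose libraries overlapped those of *ahl22*, the value was 0.04 (adjusted p = 0.892). The call was lost with DESeq2 (adjusted p = 0.16), without replicate 1 of the shared Col-0 pair (adjusted p = 0.0676) and without replicate 1 of *ahl22* (adjusted p = 0.181). *PHYE* in *frs7 frs12* (0.24) was called without replicate 2 of that mutant (0.38, adjusted p = 0.031) and with upper-quartile scaling (0.32, adjusted p = 0.0453). *PHYE* shares 60 exonic bases with *SSP4b* (AT4G18140) on the same strand, which had 10.0 and 8.76 CPM in the shared pair, with 15.5 and 13.0 CPM in *ahl22*.

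*CRY1* (AT4G08920, chromosome 4, 5723651 to 5727268, plus strand), the main cryptochrome for hypocotyl growth in strong blue light, was highest in the shared Col-0 pair, at 232 and 232 CPM. It had 182 and 186 CPM in the separate Col-0 pair, 156 and 156 CPM in *ahl22*, 178 and 177 CPM in *frs7 frs12*, 161 and 158.5 CPM in *ahl22 frs7 frs12*, and 159 and 169 CPM in *hda15*. All mutant libraries were below all 4 Col-0 libraries. *CRY1* fell in *ahl22* by 0.58 on the log2 scale (standard error 0.068, adjusted p = 2.89e-09), in *frs7 frs12* by 0.39 (standard error 0.0778, adjusted p = 0.000172) and in *hda15* by 0.51 (standard error 0.122, adjusted p = 0.00669), each against the shared pair. Against that pair it also fell in *ahl22 frs7 frs12* (-0.55, standard error 0.0684, adjusted p = 7.32e-09). Against the separate pair none of the mutants passed, and *ahl22* had -0.22 (95% interval -0.356 to -0.0795, adjusted p = 0.0923), *frs7 frs12* -0.04, *ahl22 frs7 frs12* -0.22 (adjusted p = 0.0893) and *hda15* -0.16. The *ahl22* and *ahl22 frs7 frs12* values passed once either library of the separate pair was left out (adjusted p of 0.0179 to 0.0217), where the remaining library is assumed to vary like the other group. The *hda15* call was lost without either library of the shared pair (adjusted p = 0.13 and 0.156).

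*CRY2* (AT1G04400, chromosome 1, 1185512 to 1188696, minus strand), whose protein is degraded in blue light and promotes flowering in long days, had 116 and 109 CPM in the shared pair, 93.2 and 97.2 CPM in the separate pair, 103 and 96.6 CPM in *ahl22*, 109.9 and 109.5 CPM in *frs7 frs12*, 88.4 and 81.3 CPM in *ahl22 frs7 frs12*, and 78.9 and 89.4 CPM in *hda15*. The lowest groups, *ahl22 frs7 frs12* and *hda15*, overlapped each other and were below both Col-0 pairs. Against the shared pair, *CRY2* fell in *ahl22* (-0.18, standard error 0.0737, adjusted p = 0.0395), in *hda15* (-0.42, standard error 0.127, adjusted p = 0.0235) and in *ahl22 frs7 frs12* (-0.41, standard error 0.0786, adjusted p = 2.29e-05). No mutant passed against the separate pair, where the values ran from -0.18 to 0.21. The *ahl22* call was lost with DESeq2 (adjusted p = 0.0959), with upper-quartile scaling (-0.08), with no filter (adjusted p = 0.0566), without either *ahl22* library (adjusted p = 0.0807 and 0.334) or replicate 1 of the shared pair (adjusted p = 0.124), and the *hda15* call without either library of that pair (adjusted p = 0.294 and 0.20).

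*PHOT1* (AT3G45780, chromosome 3, 16816721 to 16824210, plus strand), the phototropin of weak blue light, was reduced in *ahl22 frs7 frs12* and *hda15*. It had 361.5 and 371 CPM in the shared pair, 275.5 and 299 CPM in the separate pair, 338 and 325 CPM in *ahl22*, 277 and 282 CPM in *frs7 frs12*, 208 and 194 CPM in *ahl22 frs7 frs12*, and 182 and 211 CPM in *hda15*. The libraries of *ahl22 frs7 frs12* and *hda15* overlapped each other and lay below every other library. In *ahl22 frs7 frs12*, *PHOT1* fell by 0.53 on the log2 scale against the separate pair (standard error 0.07, adjusted p = 0.000449) and by 0.87 against the shared pair (standard error 0.067, adjusted p = 1.67e-14). In *hda15* it fell by 0.91 against the shared pair (standard error 0.129, adjusted p = 0.000131) and by 0.54 against the separate pair (standard error 0.137, adjusted p = 0.01). In *ahl22* and *frs7 frs12* the calls were made against the shared pair (-0.15 and -0.39, adjusted p = 0.0472 and 0.00017) and not against the separate pair, where *ahl22* had 0.23 (adjusted p = 0.0759, called as a rise with DESeq2, with no filter and, at 0.28, without library 2 of the pair) and *frs7 frs12* -0.03. The *ahl22* call against the shared pair was lost with upper-quartile scaling (-0.05), with no filter, with the replicate block (adjusted p = 0.0523) and without replicate 2 of the pair or either *ahl22* library. With the 4 Col-0 libraries as a single group in a fit of all libraries, *PHOT1* alone stayed called in *ahl22 frs7 frs12* (-0.71, adjusted p = 0.0474) and in *hda15* (-0.74, adjusted p = 0.0165). Against the separate pair, *ahl22 frs7 frs12* lost the call without its replicate 2 and *hda15* without library 2 of that pair. The log2 fold changes moved little in these smaller fits, to -0.48 and -0.50.

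*PHOT2* (AT5G58140, chromosome 5, 23523825 to 23533111, plus strand), the phototropin of strong blue light that drives chloroplast avoidance, had another order of groups. It had 208 and 199 CPM in the shared pair, 147.5 and 145 CPM in the separate pair, 129.9 and 131 CPM in *ahl22*, 113 and 113 CPM in *frs7 frs12*, 118 and 119 CPM in *ahl22 frs7 frs12*, and 153 and 159 CPM in *hda15*. *PHOT2* was thus lowest in *frs7 frs12* and *ahl22 frs7 frs12*, and *hda15* was above the separate Col-0 pair. Within its table it fell in *ahl22* (-0.65, standard error 0.0691, adjusted p = 3.26e-10), *frs7 frs12* (-0.85, standard error 0.0794, adjusted p = 3.85e-09), *ahl22 frs7 frs12* (-0.32, standard error 0.0731, adjusted p = 0.0189) and *hda15* (-0.39, standard error 0.122, adjusted p = 0.0281). Against the opposite pair it also fell in *frs7 frs12* (-0.36, standard error 0.0838, adjusted p = 0.0157) and in *ahl22 frs7 frs12* (-0.79, standard error 0.0705, adjusted p = 1.48e-12), whereas *ahl22* had -0.15 (adjusted p = 0.289) and *hda15* 0.09 (adjusted p = 0.62). The separate-pair calls of *ahl22 frs7 frs12* and *frs7 frs12* were lost when either library of the mutant was left out (adjusted p of 0.151 to 0.276), and the shared-pair call of *hda15* without either library of that pair (adjusted p = 0.332 and 0.261). *PHOT2* shares 2760 exonic bases with AT5G58150 on the opposite strand, and without strand the reads of the 2 genes cannot be told apart. AT5G58150 had 18.3 and 25.5 CPM in the shared pair, 18.1 and 21.3 CPM in *hda15* and 12.9 to 14.0 CPM in all other libraries.

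*UVR8* (AT5G63860, chromosome 5, 25554416 to 25559499, minus strand) showed the largest difference between the Col-0 pairs. It had 268 and 243.5 CPM in the shared pair and 162 and 166 CPM in the separate pair, with 181 and 186.5 CPM in *ahl22*, 213.5 and 186.5 CPM in *frs7 frs12*, 187 and 187 CPM in *ahl22 frs7 frs12*, and 203 and 165 CPM in *hda15*. All mutant libraries were below the shared pair, and all but 1 *hda15* library were above the separate pair. Accordingly *UVR8* fell against the shared pair in *ahl22* (-0.48, standard error 0.0692, adjusted p = 2e-07), *frs7 frs12* (-0.36, standard error 0.0849, adjusted p = 0.000979) and *hda15* (-0.48, standard error 0.135, adjusted p = 0.0163). Its values against the separate pair were 0.18, 0.29 and 0.17, none of which passed, although that of *ahl22* did without library 2 of the pair (0.19, adjusted p = 0.0387) and that of *frs7 frs12* with no filter (adjusted p = 0.0258), both as rises. In *ahl22 frs7 frs12* it had 0.17 against the separate pair of its own table and -0.46 against the shared pair (adjusted p = 3.11e-07). The *hda15* call was lost without either library of the shared pair (adjusted p = 0.251 and 0.114).

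**Figure D3:**
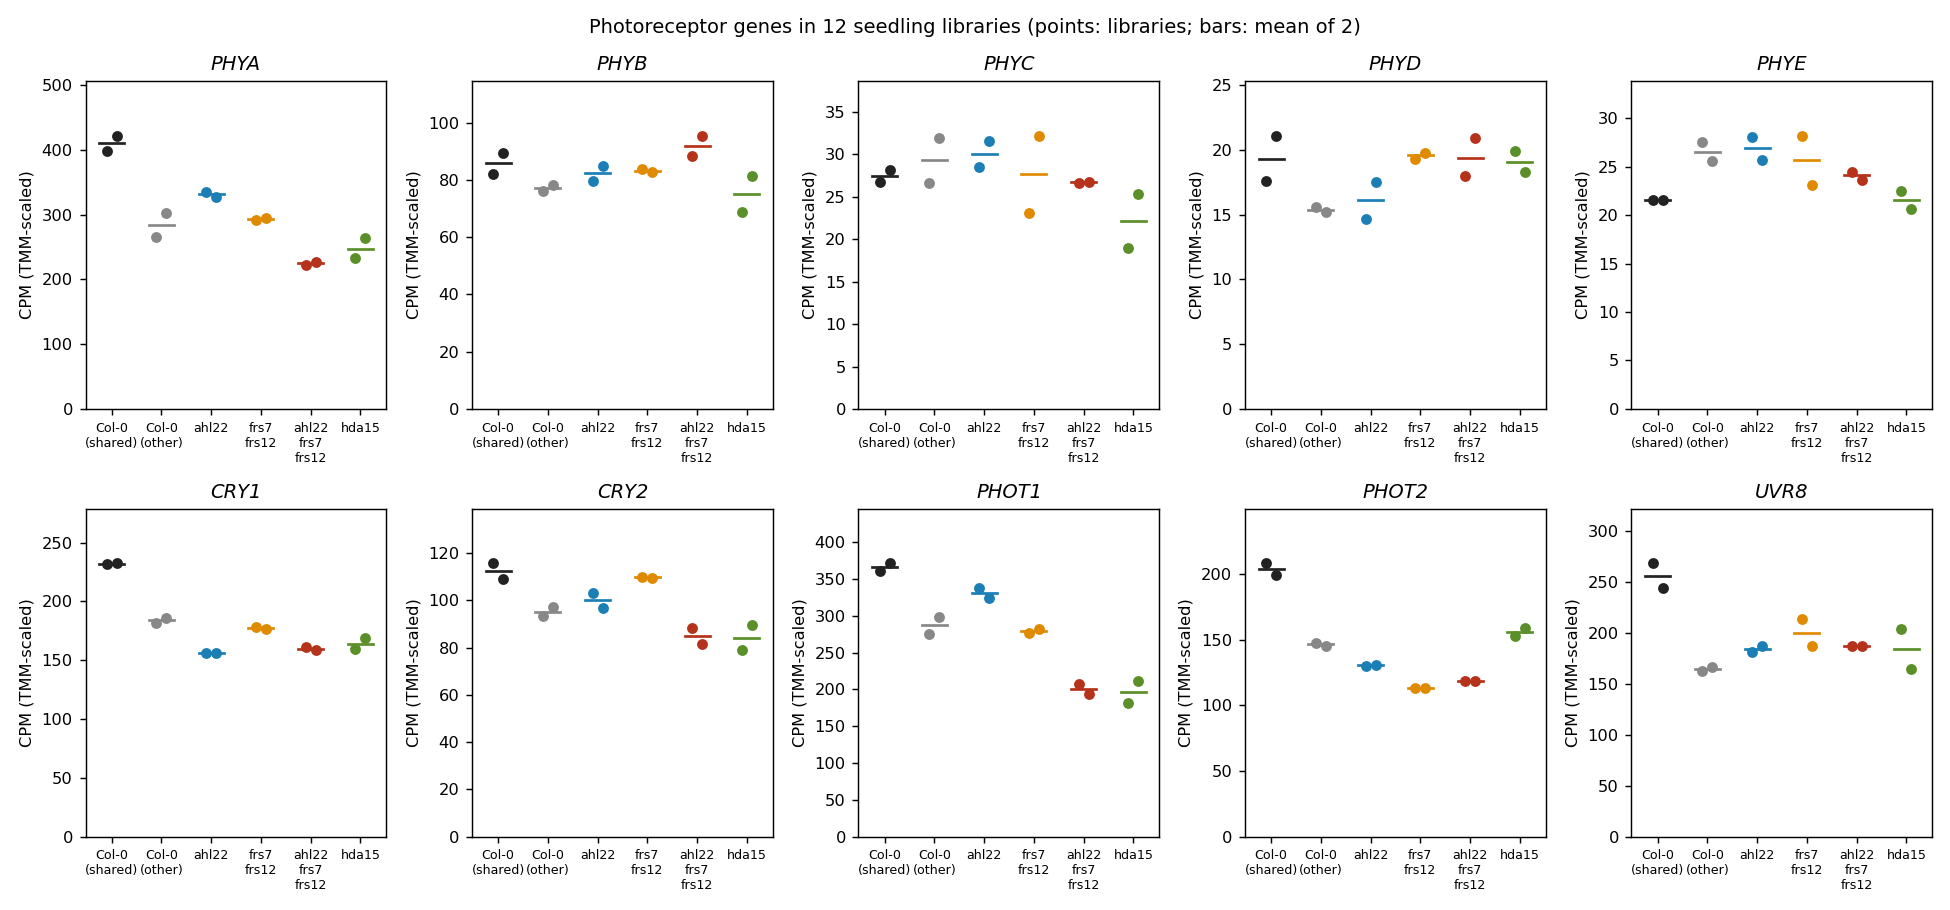
CPM after TMM scaling (linear axes from 0) of each of the 10 genes in the 12 libraries, with a point for each library and a bar for the mean of the 2 libraries of a group. *PHYA*, *CRY1*, *PHOT1*, *PHOT2* and *UVR8* are highest in the shared Col-0 pair, *PHYA* and *PHOT1* are low in *ahl22 frs7 frs12* (222 and 227 CPM, 208 and 194 CPM) and *PHYB* stays between 68.7 and 95.5 CPM.

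Counted over the comparisons within each table, 1 of the 10 genes rose and 6 fell in *ahl22*, beside 27.9% and 29.8% of all 19173 genes tested. None rose and 5 fell in *frs7 frs12* (26.0% and 28.3% of all genes), none rose and 3 fell in *ahl22 frs7 frs12* (3.40% and 2.88%), and none rose and 6 fell in *hda15* (13.3% and 12.4%). The median log2 fold change of the 10 genes was -0.22, -0.20, -0.17 and -0.41 in these comparisons, beside 0.021, 0.022, -0.009 and 0.004 over all genes. Against the opposite Col-0 pair, none of the 10 genes was called in *ahl22* (2.54% of all genes higher and 3.76% lower), although 4 had an unadjusted p below 0.05 and DESeq2 called 2. In *frs7 frs12* only *PHOT2* was called, lower (3.18% higher and 3.58% lower of all genes), in *hda15* only *PHOT1*, lower (16.7% and 11.4%), and in *ahl22 frs7 frs12* 6 genes fell (27.1% and 29.4%). The separate Col-0 pair set against the shared pair also gave 6 of the 10 genes lower and none higher (25.4% of all genes lower and 23.5% higher). These were *PHYA* (-0.53), *CRY1* (-0.34), *CRY2* (-0.24), *PHOT1* (-0.35), *PHOT2* (-0.48) and *UVR8* (-0.64). The *CRY2* call was lost without either library of the shared pair or library 1 of the separate pair (adjusted p of 0.0917 to 0.196).

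Called lower against each of the Col-0 pairs were *PHYA*, *PHOT1* and *PHOT2* in *ahl22 frs7 frs12* (2.01% of all genes), *PHOT2* in *frs7 frs12* (2.14%), *PHOT1* in *hda15* (2.41%) and none of the 10 genes in *ahl22* (2.06%). The tests behind each count share the mutant libraries. In the comparison of *ahl22 frs7 frs12* with its own Col-0 pair the root and evening sums overlapped (41.1 and 41.7 against 47.5 and 31.5 CPM for root markers, 79.6 and 84.8 against 83.0 and 76.6 CPM for evening genes). The green shoot sums were higher there without overlap (75221 and 76725 against 65438 and 65689 CPM, with 5 of 11 markers called higher and 1 lower), and the morning sums were lower (62.9 and 65.4 against 74.8 and 69.7 CPM, with none of 3 genes called). The *frs7 frs12* libraries had lower morning sums (35.6 and 41.8 CPM) and higher evening sums than the separate pair. Their green shoot sums were also lower (63385 and 58886 CPM), with 2 of 11 markers called lower and 0 higher. The *hda15* root sums lay between those of the Col-0 pairs, its evening sums were below both, and its green shoot (79967 and 69341 CPM) and morning sums were above both. The part of these markers in the calls was not tested. None of the 10 genes passed the threshold of a 2-fold change that the study set for differentially expressed genes. The largest absolute log2 fold change was 0.91, for *PHOT1* in *hda15* against the shared pair, and it passed that line without replicate 2 of *hda15* (-1.02).

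**Figure D4:**
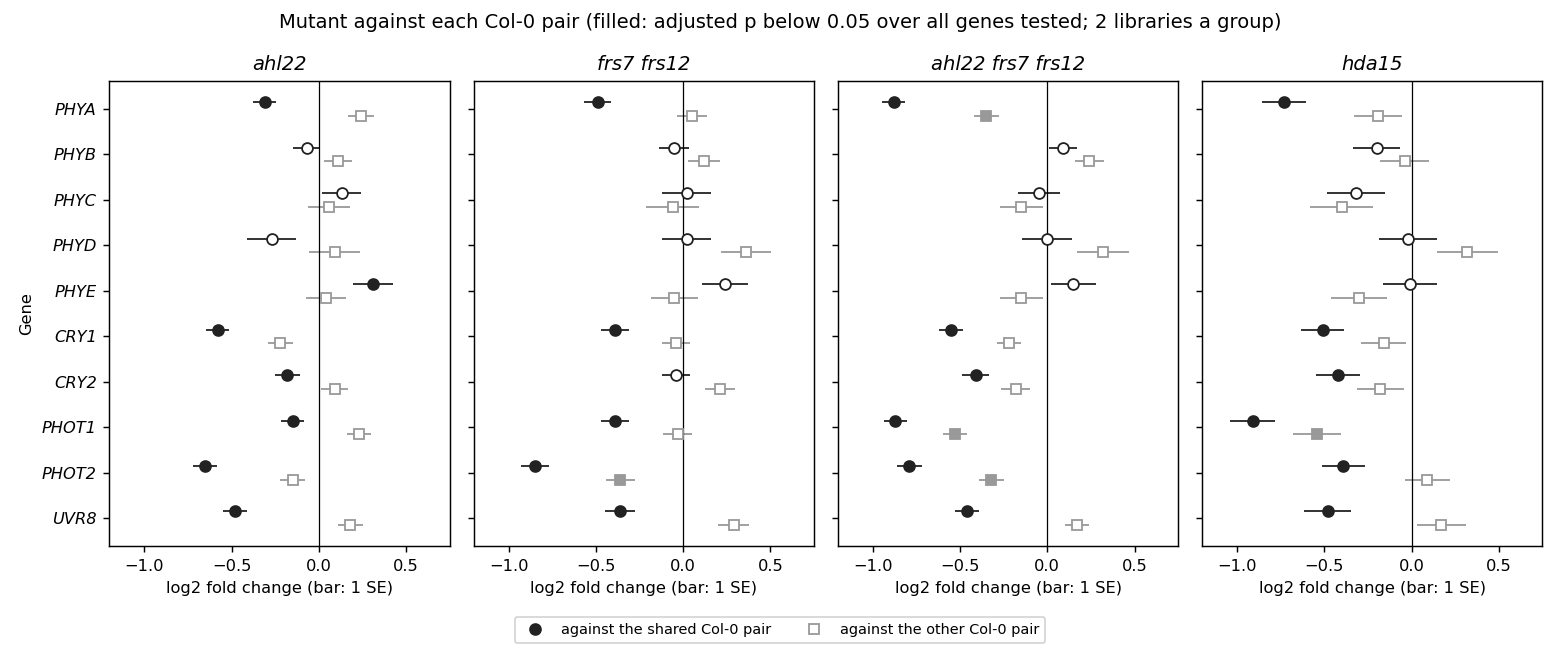
Log2 fold change of each gene (bar, 1 standard error) in each mutant against the shared Col-0 pair (circles) and the separate Col-0 pair (squares, named other in the legend), with filled symbols for an adjusted p below 0.05 over all genes tested and 2 libraries in each group. Filled squares are found for *PHOT2* in *frs7 frs12* (-0.36), for *PHYA* (-0.35), *PHOT1* (-0.53) and *PHOT2* (-0.32) in *ahl22 frs7 frs12*, and for *PHOT1* in *hda15* (-0.54).

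The mutants were next compared with each other, which needs no Col-0 pair, in a fit of all 12 libraries. Set against *ahl22*, the *ahl22 frs7 frs12* libraries had less *PHYA* and *PHOT1*, by 0.56 (standard error 0.0891, adjusted p = 0.00026) and by 0.72 on the log2 scale (standard error 0.0892, adjusted p = 1.37e-05). These were the only genes of the 10 called, and none was higher (4.37% of all 19841 genes tested were lower and 7.37% higher). Both calls held in all 11 alternatives tried. In *ahl22 frs7 frs12* against *frs7 frs12*, *PHYA* (-0.39, standard error 0.0891, adjusted p = 0.0164), *CRY2* (-0.38, standard error 0.0933, adjusted p = 0.0264) and *PHOT1* (-0.48, standard error 0.0891, adjusted p = 0.0028) were lower and none was higher (1.72% of all genes lower and 1.83% higher). *PHYA* and *CRY2* lost the call when any of the 4 libraries was left out. Their log2 fold changes then stayed at -0.38 to -0.41 and at -0.33 to -0.45. *PHOT1* lost the call only without replicate 2 of *ahl22 frs7 frs12* (-0.45). Between *frs7 frs12* and *ahl22* edgeR called none of the 10 genes (2.60% of all genes higher and 1.79% lower), with 3 at an unadjusted p below 0.05. DESeq2 also called none, whereas a fit of the 4 libraries alone called *PHYA* (-0.19), *PHOT1* (-0.26) and *PHOT2* (-0.22) lower in *frs7 frs12*. That smaller fit also added *CRY2* (-0.26) and *PHOT2* (-0.17) to the genes with less transcript in *ahl22 frs7 frs12* when set against *ahl22*. The evening clock sum was 124 and 125 CPM in *ahl22*, 101 and 107 CPM in *frs7 frs12* and 79.6 and 84.8 CPM in *ahl22 frs7 frs12*, and the root sums were 29.9 to 45.1 CPM in all 6 of these libraries. The green shoot sums of *ahl22 frs7 frs12* (75221 and 76725 CPM) were above those of *ahl22* and *frs7 frs12* (51264 to 63385 CPM). The part of these differences in the falls of *PHYA* and *PHOT1* was not tested.

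Whether the *ahl22* mutation went with another change in the *frs7 frs12* background than in Col-0 was tested as an interaction, a contrast chosen after the data had been seen. With the separate Col-0 pair as control, *PHYA* (-0.61, standard error 0.126, adjusted p = 0.00327), *CRY2* (-0.44, standard error 0.132, adjusted p = 0.0395) and *PHOT1* (-0.69, standard error 0.125, adjusted p = 0.0012) were called below 0, and none above it (3.11% of all genes below and 5.42% above). With the shared pair as control none of these passed, at -0.07 for *PHYA*, -0.19 for *CRY2* and -0.32 for *PHOT1* (adjusted p = 0.0511), and *CRY1* (0.43), *PHOT2* (0.72) and *UVR8* (0.39) were called above 0 instead (18.7% of all genes above and 15.3% below). The result therefore depends on which Col-0 pair stands for the wild type.

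Ratios of genes within a library do not depend on how libraries are scaled, and are given as a description. *PHYA* made up 69.1% and 68.6% of the summed RPKM of the 5 phytochromes for the shared Col-0 pair, 60.0% and 62.3% for the separate pair, 64.7% and 62.9% in *ahl22*, 61.0% and 60.7% in *frs7 frs12*, 59.7% and 60.1% in *hda15*, and 54.0% and 53.2% in *ahl22 frs7 frs12*. The last was thus the group with the smallest share of *PHYA*, without overlap with any other. The ratio of *PHYA* to *PHYB* was 2.23 and 2.11 there and 2.86 to 4.30 in all other libraries. The ratio of *PHOT1* to *PHOT2* set the mutants apart in another way. It was 5.08 and 4.84 in *ahl22* and 4.77 and 4.88 in *frs7 frs12*, 3.19 to 4.02 in both Col-0 pairs and *ahl22 frs7 frs12*, and 2.32 and 2.59 in *hda15*. The ratio of *CRY1* to *CRY2* was 1.37 to 1.46 in *ahl22* and *frs7 frs12* and 1.65 to 1.93 elsewhere. The summed CPM of the 10 genes was 1731 and 1737 for the shared Col-0 pair and 1271 and 1346 for the separate pair. Among mutants it was 1142 and 1134 in *ahl22 frs7 frs12*, 1139 and 1202 in *hda15*, 1337 and 1320 in *frs7 frs12*, and 1395 and 1381 in *ahl22*.

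*PHOT1*, *PHYA* and *PHOT2* had the widest range of group means (0.90, 0.86 and 0.84 on the log2 scale of CPM plus 1). Over the 12 libraries, after centring each gene on its mean, the genes closest to *PHOT1* among 10941 candidates were *SR1* (AT2G22300, root mean square difference 0.124), *PHYA* (0.124) and AT2G31040 (0.127). *PHYA* itself was closest to AT1G29350 (0.0942), *DPE2* (AT2G40840, 0.0991) and *SYN4* (AT5G16270, 0.101), with *PHOT1* in place 18 of 11216. *PHOT2* was closest to *GH9A1* (AT5G49720, 0.0925), *ROPGEF1* (AT4G38430, 0.0974) and *FAB1B* (AT3G14270, 0.0991), and *PHOT1* stood in place 3978 of 11432 at 0.347. *PHOT1* was thus nearer to *PHYA* than to the other phototropin gene. All points share the library and its normalization, and the order is given as a description.

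Of the other genes of light perception, 39 in 8 lists were considered. In the comparisons within each table, 11 rose and 12 fell in *ahl22* (of 35 tested), 11 rose and 11 fell in *frs7 frs12* (of 36), 1 rose and 2 fell in *ahl22 frs7 frs12* (of 36), and 9 rose and 7 fell in *hda15* (of 37). Against the opposite pair the counts were 4 and 4 in *ahl22*, 10 and 13 in *ahl22 frs7 frs12*, 3 and 5 in *frs7 frs12*, and 8 and 4 in *hda15*. These counts are to be read beside the shares of all genes given above. The median log2 fold changes lay between -0.10 and 0.04 in all 8 comparisons.

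The first list holds genes listed under synthesis of the phytochrome chromophore. *HY1*, a heme oxygenase, *HO2*, a gene of that family, and *HY2*, the phytochromobilin synthase, were the 3 tested of 5 listed. All 3 rose in *ahl22* and *frs7 frs12* against the shared pair. *HY1* had 67.1 and 67.4 CPM in that pair, 102 and 98.0 CPM in *ahl22*, 112 and 111 CPM in *frs7 frs12* and 44.1 and 52.6 CPM in *hda15*, with 96.2 and 105 CPM in the separate pair and 105 and 107 CPM in *ahl22 frs7 frs12*. Its rise in *ahl22* was 0.57 against the shared pair (adjusted p = 6.13e-08) and 0.01 against the separate pair. In *hda15* it fell against both, by 0.48 (adjusted p = 0.0159) and by 1.06 (adjusted p = 0.000178). *HO2* rose by 1.15 in *ahl22* and *HY2* by 0.84 against the shared pair, and neither passed against the separate pair (0.03 and 0.22). Among the 9 partners of phytochromes in nuclear import and signalling, *FHL*, which carries phytochrome A into the nucleus, had 1.99 and 1.86 CPM in the shared pair, 3.20 and 3.21 CPM in the separate pair, 6.23 and 5.95 CPM in *ahl22* and 6.24 and 5.72 CPM in *frs7 frs12*. It rose in *ahl22* against both pairs (1.65 and 0.94, adjusted p = 8.6e-06 and 0.0402), and in *frs7 frs12* against the shared pair (1.62, adjusted p = 9.26e-05) with 0.90 against the separate pair (adjusted p = 0.0621). In *ahl22 frs7 frs12*, *FHL* had 4.80 and 3.66 CPM. It rose there by 1.12 against the shared pair (adjusted p = 0.00814), with 0.39 against the separate pair (adjusted p = 0.55). *FHY1*, the homolog of *FHL*, fell in *hda15* against both pairs (-0.89 and -0.92, adjusted p = 0.0152 and 0.0173). *PKS2*, a phytochrome kinase substrate, had 34.2 and 37.5 CPM in the shared pair, 49.3 and 68.0 CPM in the separate pair, 74.3 and 79.6 CPM in *ahl22* and 59.0 and 86.7 CPM in *frs7 frs12*. It passed in both mutants against the shared pair (adjusted p = 2.3e-13 and 4.93e-07) and in neither against the separate pair (0.41 and 0.33), although both passed without library 2 of that pair (0.66 and 0.57). *CIB1*, a partner of cryptochrome 2 and the only listed cryptochrome regulator matched by symbol, was called in none of the comparisons within a table. Against the opposite pair it was called lower in *ahl22 frs7 frs12* (-0.50) and higher in *hda15* (0.54).

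Receptors of the ZEITLUPE and LOV type differed in how they moved. *FKF1*, a blue-light receptor of the evening that times flowering, had 11.9 and 10.9 CPM in the shared pair, 1.53 and 0.656 CPM in the separate pair, 8.85 and 8.14 CPM in *ahl22* and 0.628 and 1.15 CPM in *hda15*. In *ahl22* it was called lower against the shared pair (-0.43, adjusted p = 0.0337) and higher against the separate pair (2.98, adjusted p = 0.000182), and the evening clock sums of *ahl22* likewise lay between those of the Col-0 pairs. Their part in the *FKF1* result was not tested. *ZTL*, which turns over clock proteins, fell in *ahl22* (-0.88) and *frs7 frs12* (-0.76) against the shared pair and had -0.10 and 0.01 against the separate pair. *PLP*, a PAS/LOV protein, was lower against both pairs, given in the order shared and separate, in *ahl22* (-0.59 and -0.34, adjusted p = 2.61e-07 and 0.0403), in *ahl22 frs7 frs12* (-0.81 and -0.58) and in *hda15* (-0.79 and -0.56, adjusted p = 0.000435 and 0.00892). It had 42.6 and 42.2 CPM in *ahl22*, 35.2 and 38.0 CPM in *ahl22 frs7 frs12* and 36.6 and 37.2 CPM in *hda15*, against 53.7 to 65.2 CPM in the 4 Col-0 libraries.

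Among the 7 ubiquitin ligase genes of the COP1, SPA and LRB type, *LRB1*, which marks phytochrome B for degradation, fell in *ahl22* (-1.06), *frs7 frs12* (-1.04) and *hda15* (-0.63) against the shared pair and passed in none of them against the separate pair (-0.05, -0.04 and 0.36). *SPA4* rose in *ahl22* (0.58) and *frs7 frs12* (0.52), and *SPA3* rose in *hda15* (0.77), against the shared pair only. Of the 5 phototropin partners, *BLUS1*, a guard cell kinase, rose in *ahl22* (1.01) and *frs7 frs12* (0.65) against the shared pair only. *CHUP1* and *JAC1*, which act in chloroplast movement, fell there (-0.27 and -0.51 in *ahl22*, -0.39 and -0.40 in *frs7 frs12*) and again did not pass against the separate pair. *RUP1* and *RUP2* encode the repressors that return UVR8 to its dimer. *RUP2* had 8.85 and 9.08 CPM in *ahl22*, 15.7 and 14.5 CPM in the shared pair, 23.4 and 18.2 CPM in the separate pair and 55.6 and 36.8 CPM in *hda15*. It fell in *ahl22* against both pairs (-0.76 and -1.19, adjusted p = 9.95e-05 and 0.000786) and rose in *hda15* against both (1.60 and 1.15, adjusted p = 2.07e-05 and 0.00117). In *frs7 frs12* it passed against the separate pair only (-0.74, adjusted p = 0.0122). In *ahl22 frs7 frs12* it had 20.0 and 19.1 CPM and was not lower than either pair. The values there were -0.10 against the separate pair, 0.36 against the shared pair (adjusted p = 0.0321) and 1.13 against *ahl22* (adjusted p = 0.000384). *RUP1* fell in *ahl22* (-1.93) and *frs7 frs12* (-1.73) against the shared pair and did not pass against the separate pair (-0.59 and -0.41). Of the 5 light-induced output genes, 4 rose in *hda15* against each pair. *HYH*, a bZIP factor of photomorphogenesis, had 11.1 and 13.0 CPM in *hda15* against 1.86 to 7.02 CPM in the 4 Col-0 libraries (2.52 and 0.96, adjusted p = 4.3e-06 and 0.00781). *HYH* also had 10.5 and 10.1 CPM in *ahl22 frs7 frs12*. There it rose by 2.30 against the shared pair (adjusted p = 1.16e-09), with 0.72 against the separate pair (adjusted p = 0.0746). In *ahl22* and *frs7 frs12* it was called higher against the shared pair only (0.86 and 1.40). *ELIP1* and *ELIP2*, chlorophyll-binding proteins of high light, rose in *hda15* by 2.38 and 2.21 against the shared pair. Against the separate pair they rose by 1.94 and 1.64. Their counts were 28 to 77 in *hda15* and 5 to 17 in Col-0. The morning clock sums were highest in *hda15*, and their part in the rises in that mutant was not tested.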

How the data were processed

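RNA-seq of 12 libraries was analysed. Raw counts were deposited by the authors, who aligned the reads with HISAT2 to the TAIR10 genome and used Subread for counting (strand setting not given in the sources used here). They cover 27416 genes in 4 tables, without normalization. The 16 columns hold 12 distinct libraries. The study describes the replicates as biological. The columns of the separate Col-0 pair are numbered, but no label links them to a sample or its replicate. MAR-seq was not analysed here. Sources differ on growth and library kit. The labels give 2 days of stratification, 22 °C, soil and a NEBNext kit, and the study's methods other values.

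The 10 genes and all lists were chosen with earlier results of these data known. Of 49 listed genes of light perception, 10 without that symbol in the annotation were left out. Genes (26719 matched) were located by ID in RefSeq's annotation of TAIR10.1, and promoter windows (250 bases) were read from it. Each mutant was compared with each Col-0 pair in edgeR 4.0.16 (R 4.3.3) with its quasi-likelihood test, TMM, filterByExpr and Benjamini-Hochberg adjustment over all genes tested, on the 4 libraries concerned. Mutants were compared with each other in a fit of all 12 libraries in 6 groups. Genes were called at an adjusted p below 0.05. Fold changes are log2, and 95% intervals assume normal errors. With 2 libraries in a group, p-values measure only the spread between these samples. Scripts were tested on simulated data. CPM was TMM-scaled over all libraries, and RPKM used the union of exons. Of each list, up to 3 genes with the largest change among those called against the own Col-0 pair are named. Likeness was measured among genes with a mean of at least 5 CPM and a range of group means of at least 0.5 times that of the member. Transcripts were compared with blastn 2.17.0.

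Alternatives were DESeq2 1.42.0, upper-quartile and RLE scaling, all genes kept without a filter, a minimum of 10 counts per library, 1 fit of the 12 libraries with 6 groups or with Col-0 as 1 group, only the libraries compared, the replicate number as a block, and each replicate left out. The interaction and the median transcript length were added after seeing the data. Figures were drawn with matplotlib 3.10.9.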

Additional observations from a re-analysis of the deposited data

Results flagged for a closer look

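The difference between the *ahl22* effect in *frs7 frs12* and that in Col-0 (separate pair) passed the test for *PHYA* (-0.61 on the log2 scale), *CRY2* (-0.44) and *PHOT1* (-0.69), which drew these genes to attention. With the shared Col-0 pair as control the differences were -0.07, -0.19 and -0.32, and none passed. *CRY2* was also lost when any single library was left out of the fit (adjusted p of 0.0517 to 0.15), whereas *PHYA* and *PHOT1* were called each time. No gene of the 10 had a library standing apart among the 4 Col-0 libraries by Dixon's criterion, where the largest gap was 0.71 of the range (*PHYC*). For genes that differ between the Col-0 pairs, that difference widens the range, so the criterion could hardly single out a library.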

How the results depend on the processing

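The numbers here are those of the 10 genes called. With Col-0 as 1 group of 4 in the fit of all libraries, they fell to 0 in *ahl22*, 0 in *frs7 frs12*, 1 in *ahl22 frs7 frs12* and 1 in *hda15*. There *PHOT1* in *ahl22* turned to 0.01, *FKF1* to 0.44 in *ahl22* and -0.55 in *frs7 frs12*, *HYH* in *ahl22* to -0.14 and *RUP1* in *hda15* to -0.02, none of them called. *UVR8* turned to 0.39 in the interaction with the shared pair. All libraries in 6 groups gave 4 for *ahl22* against its own Col-0 pair and 2 for *hda15* against the opposite pair. DESeq2 and no filter each gave 2 for *ahl22* against the opposite pair, and no filter gave 2 for *frs7 frs12*. With only the libraries compared, *ahl22 frs7 frs12* against *ahl22* gave 4 and *frs7 frs12* against *ahl22* gave 3. The causes were not tested. Leaving out 1 library gave 4 to 6, 5 to 6, 0 to 5 and 2 to 8 called in *ahl22*, *frs7 frs12*, the combined mutant and *hda15* against the own Col-0 pair, 0 to 4, 0 to 1, 6 and 0 to 2 against the opposite pair, 5 to 6 between the Col-0 pairs, 2, 0 to 1 and 0 between mutants, in the order given above, and 2 in the interaction, the lone library being assumed to vary like the other group. Whether the replicate numbers pair the samples is not known. Deviations of same-numbered libraries correlated at -0.03 to 0.31 over the group pairs, highest for *hda15* with *frs7 frs12* (0.31) and with the shared Col-0 pair (0.25). With the replicate block, 6, 5 and 6 genes were called in *ahl22*, *frs7 frs12* and *hda15* against the shared pair, and 2, 3 and 0 between mutants. The separate Col-0 pair, whose columns no label links to a replicate, had no such fit. In order of RPKM, 8 genes kept their place with the longest transcript and 6 with the median transcript. Upper-quartile scaling moved the median of all genes from 0.021 to 0.119 in *ahl22*. Of 1450 values of the 10 genes, 1337 stayed on the same side of the threshold, of which 74 changed sign without being called. A further 83 were no longer called, 28 became called in the same direction and 2 changed sign with a call in 1 of the fits.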
